A study of Mus musculus with 27 samples.

Results

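Adding Tbx5 to cells that had been given Mef2c raised the accessibility of 2129 of 20494 tested regions and lowered it at 424. The data are counts from ATAC-seq, an assay that tags DNA a transposase can reach, and a higher count in a region is read as more accessible DNA. Libraries MT replicates 1 to 3 were compared with libraries M replicates 1 to 3, as labelled, at every region of the deposited table. These are 6 of 27 labelled samples, and all 30815 regions were entered, of which 20494 (66.5%) had enough counts to be tested. MT cells received retroviruses for Mef2c and Tbx5, and M cells a retrovirus for Mef2c alone. Both were cultured with the Tgfβ inhibitor sb431542 and the Wnt inhibitor xav939 and were transposed unsorted at day 2. All samples came from an immortalised neonatal cardiac fibroblast line of the Cd-1 strain, which expresses large T antigen and carries an alpha-MHC-GFP reporter.

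The 18 other libraries analysed here serve as the same addition in other settings, with 3 libraries in each group. GMT cells received Gata4, Mef2c and Tbx5 and are set against GM cells, which received Gata4 and Mef2c. GT cells received Gata4 and Tbx5 and are set against G cells, which received Gata4. These groups had both inhibitors as well. T cells received Tbx5 with both inhibitors and are set against control cells, which received a dsRed retrovirus and no inhibitor, so in that pair Tbx5 and the inhibitors cannot be told apart. The 3 samples of dsRed cells that did have inhibitors are not analysed here. Each library pools many unsorted cells, so more cells with an open region and a more open region in each cell cannot be told apart.

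Tbx5 is a T-box transcription factor and Mef2c a MADS-box transcription factor, and both are needed for the development of the heart. Together with Gata4, a zinc-finger factor, they are used to turn fibroblasts into cells that resemble cardiomyocytes. Transcription factors of these families bind enhancers and promoters, and their binding is often accompanied by opening of the surrounding chromatin.

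Total counts were 1704896, 626225 and 428197 in the MT libraries and 625166, 1031724 and 456282 in the M libraries. The 24 libraries ran from 241394 to 1704896. Over the tested regions, Spearman correlations were 0.803 to 0.911 between MT libraries, 0.881 to 0.929 between M libraries and 0.681 to 0.752 between an MT and an M library. The replicates are called biological in the labels, with nothing on whether cultures were separate, and p-values measure only the spread between these libraries. The library labelled GT replicate 1 stood apart from the other GT libraries, and results of GT over G are given with and without it. Its Spearman correlations were 0.941, 0.824 and 0.913 with G replicates 1 to 3, against 0.730 and 0.722 with GT replicates 2 and 3. It was kept in the main fit, which shares 1 estimate of spread over all groups. Without it 2414 regions were higher and 568 lower in MT than in M. GMT replicate 1, the library of lowest total count, also stood apart, with correlations of 0.688 and 0.726 with GMT replicates 2 and 3. GMT replicates 2 and 3 correlated at 0.922 with each other. The highest correlation of GMT replicate 1 was 0.824, with MT replicate 3, and this library was kept as well. Regions are named by their mm9 coordinates and were not placed at genes, since the annotation at hand is of another build.

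The first question was how many regions changed and in which direction. By edgeR's quasi-likelihood test with Benjamini-Hochberg adjustment, 2129 regions were higher in MT than in M (10.4% of those tested) and 424 were lower (2.07%), at an adjusted p under 0.05. Rises made up 83.4% of the 2553 calls (12.5% of regions tested). With offsets from a loess curve against the mean count the split was 1668 higher and 823 lower, or 67.0% rises. With MT replicate 1 or 2 left out, 1480 and 1431 regions were higher and 236 and 165 lower. With M replicate 1 or 2 left out, 1152 and 1190 were higher and 166 and 199 lower. Across all 6 fits that each left out 1 MT or M library, 898 of the 2129 rises (42.2%) and 98 of the 424 falls (23.1%) kept their call.

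The called changes were large, which their choice by a test on the same counts favours. The median log2 fold change of MT over M was 2.17 (quartiles 1.79 and 2.64) among regions that rose and -1.75 (quartiles -2.18 and -1.46) among regions that fell, against -0.003 over all regions tested. A fold of more than 4 was measured at 1313 of the regions that rose (61.7%) and at 140 of those that fell (33.0%). More than 8-fold changes numbered 285 rises and 11 falls, and more than 16-fold changes 30 rises and 0 falls. All 3 MT libraries were above all 3 M libraries at 2049 of the 2129 rises, and below them at 415 of the 424 falls. The same orders were seen at 4090 (20%) and 2804 (13.7%) of all tested regions, and since the calls come from the same counts these shares are a description only.

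**Figure D1:**
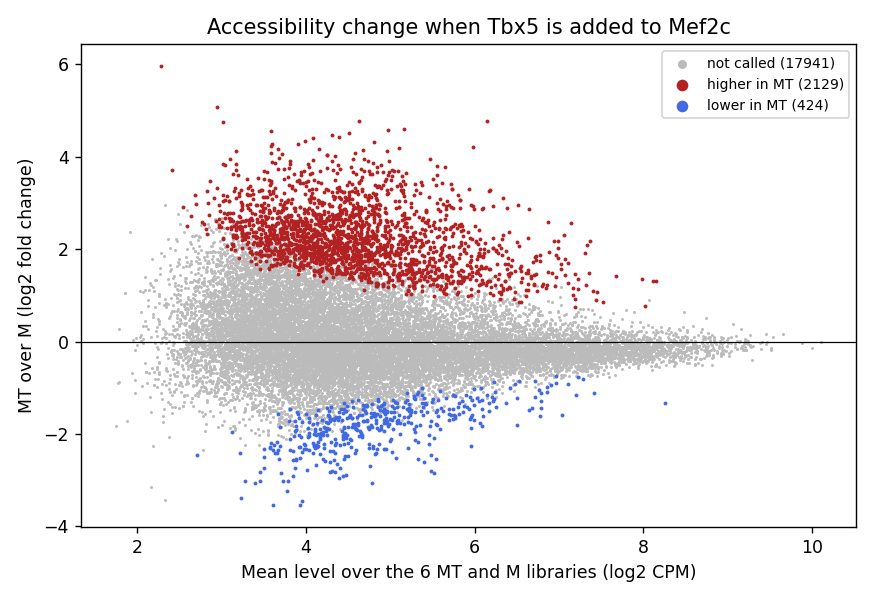
Each point is 1 of the tested regions, with its mean level over the 6 MT and M libraries (log2 CPM) on the x axis and its log2 fold change of MT over M on the y axis. Red points are the 2129 regions higher in MT, blue points the 424 lower in MT, and grey points the regions not called.

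Regions that rose had little accessibility with Mef2c alone, and regions that fell had more, levels that the choice by MT and M counts favours. Levels are in CPM, counts scaled to the TMM-adjusted total of each library, and are compared between groups at the same regions, since CPM is not corrected for width. The median level of the rises was 44.5, 47.2 and 35.3 CPM in the MT libraries, against 8.36, 9.31 and 8.87 CPM in the M libraries. No library of either group reached the range of the other. The mean M level was below the median of all tested regions (20.5 CPM) at 1739 of the rises (81.7%). At 1377 of the rises (64.7%) the MT level was above its own tested median (23.7 CPM) while the M level was below its own.

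The regions that fell were the reverse: they were open with Mef2c. Their median level was 13.3, 11.8 and 11.8 CPM in the MT libraries, against 50.1, 45.5 and 44.4 CPM in the M libraries. The MT level was below its tested median at 329 of the 424 falls (77.6%), and the M level was above its tested median at 409 (96.5%). The mean in MT was above that in control at 222 of the 424 (52.4%), and the mean in M was above that in control at 397 (93.6%). The choice of regions high in M favours the second share. Over all tested regions the median level was 23.7 CPM in MT, 20.5 in M and 18.9 in control. Control had no inhibitor, so in M against control Mef2c and the inhibitors cannot be told apart. Median levels of the falls were 13.4, 10.4 and 8.51 CPM in the control libraries, a range that holds those of MT.

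**Figure D2:**
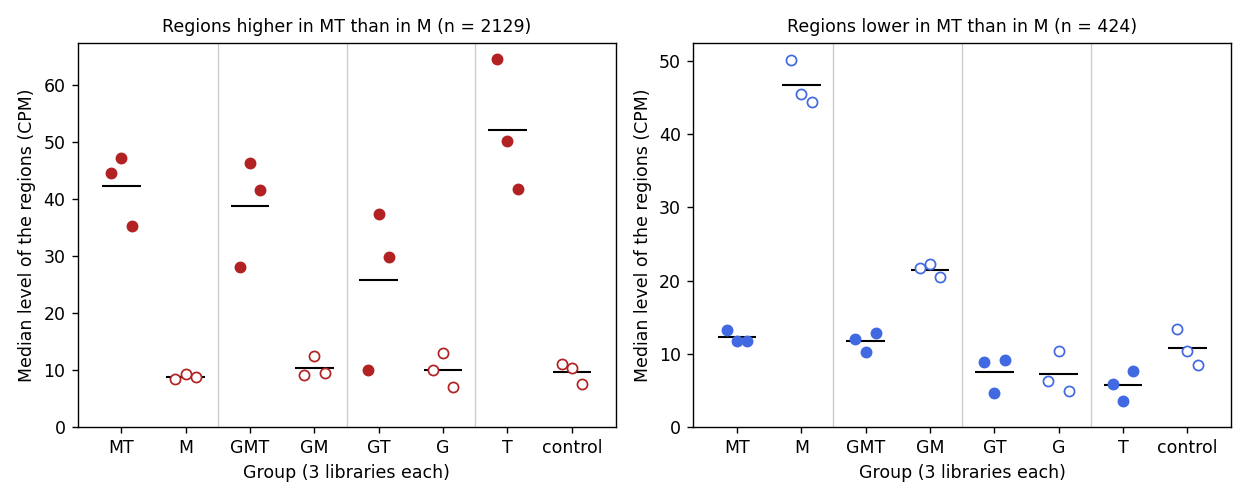
Each point is the median level (CPM, y axis) in 1 library of the 2129 regions that rose (left) or the 424 that fell (right) in MT over M, by group on the x axis, and each bar is the mean of its 3 points. Filled points are groups given Tbx5 and open points groups without it. In the left panel the filled points lie above the open ones except GT replicate 1, at 10.1 CPM, and in the right panel M stands alone between 44.4 and 50.1 CPM.

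The 10 rises with the largest log2 fold change were taken among 983 called regions whose mean level was at or above the median (log2 CPM of 4.52) and whose MT and M libraries did not overlap. At the first, chr2:18753102-18753573, MT had 100.0, 104 and 130.0 CPM and M had 5.01, 5.17 and 0 CPM. Every MT library was above every M library, as the choice required, and the log2 fold change was 4.78 ± 0.61 (SE; edgeR adjusted p = 1.34e-05). A second region of this group, chr2:18752751-18752960, lies 141 bp away. It had 116, 130.0 and 127 CPM in MT, against 10.0, 4.14 and 6.65 CPM in M (log2 fold change 4.20 ± 0.63, edgeR adjusted p = 5.36e-05). Whether the pair belong to 1 accessible stretch was not tested.

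The second rise, chr17:73371686-73372265, was the most accessible of the 10 in MT cells by CPM. It had 367, 355 and 325 CPM in MT, against 8.36, 16.5 and 11.1 CPM in M (log2 fold change 4.78 ± 0.58, edgeR adjusted p = 9.48e-06). The libraries of each group lay close together and far from the other group. In the other Tbx5 groups it stood at 241, 342 and 275 CPM in GMT, against 11.2, 17.4 and 22.1 CPM in GM, and at 528, 474 and 317 CPM in T, against 31.2, 14.3 and 13.2 CPM in control. GT replicate 1 had 12.6 CPM there, within the range of G (14.5, 20.8 and 8.48 CPM) rather than that of GT replicates 2 and 3 (309 and 195 CPM).

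At chr4:147830454-147830768, the third rise, MT had 185, 177 and 111 CPM and M had 10.0, 6.21 and 2.22 CPM (log2 fold change 4.60 ± 0.67, edgeR adjusted p = 3.56e-05). At the fourth, chr2:115762184-115762873, MT had 198, 179 and 51.8 CPM and M had 1.67, 7.24 and 8.87 CPM (log2 fold change 4.58 ± 0.63, edgeR adjusted p = 2.36e-05). MT replicate 3 was lower than the other MT libraries at both, and still above all M libraries, which the choice required. The fourth region had only 55.7, 39.5 and 17.1 CPM in T, against 6.68, 7.82 and 3.78 CPM in control, so its T libraries lay near or below the lowest MT library.

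The fifth rise, chr6:94912490-94912998, had 95.3, 113 and 96.5 CPM in MT, against 5.01, 5.17 and 4.44 CPM in M (log2 fold change 4.31 ± 0.60, edgeR adjusted p = 2.54e-05). The sixth, chr15:68243764-68244614, is the widest of the 10 at 851 bp, and it had 349, 307 and 122 CPM in MT, against 13.4, 13.4 and 15.5 CPM in M (log2 fold change 4.22 ± 0.60, edgeR adjusted p = 3.38e-05). As the choice required, neither region showed overlap between the groups. At the sixth, GMT reached 120.0, 405 and 544 CPM, against 23.0, 14.9 and 39.5 CPM in GM.

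The remaining rises were the eighth, chr16:24367243-24367686, with 106, 96.0 and 68.3 CPM in MT against 8.36, 4.14 and 2.22 CPM in M, and the ninth, chr7:132594131-132594512, with 111, 148 and 113 CPM in MT against 0, 8.27 and 13.3 CPM in M. Their log2 fold changes were 4.15 ± 0.70 and 4.12 ± 0.62. The tenth, chr1:163066097-163066698, had 117, 104 and 35.3 CPM in MT, against 1.67, 5.17 and 8.87 CPM in M (log2 fold change 4.08 ± 0.62, edgeR adjusted p = 5.82e-05). By edgeR, all 10 were also higher in GMT over GM and in T over control, where 12% and 14.5% of tested regions were. In GT over G, where 2.95% were higher, 8 of the 10 passed the test with GT replicate 1 and 8 without it. The exceptions were the fourth, with a log2 fold change of 1.47 (edgeR adjusted p = 0.283), and the tenth, with 0.42 (edgeR adjusted p = 0.878). Without GT replicate 1 these were 1.74 (edgeR adjusted p = 0.0945) and 0.91 (edgeR adjusted p = 0.462).

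The regions with the smallest p were not all those with the largest fold. The smallest was at chr8:4230734-4231155, with 131, 206 and 155 CPM in MT, against 16.7, 21.7 and 24.4 CPM in M (log2 fold change 2.96 ± 0.32, edgeR adjusted p = 2.05e-06). The next was chr12:45349408-45349985, with 94.7, 138 and 84.8 CPM in MT, against 8.36, 10.3 and 8.87 CPM in M (log2 fold change 3.48 ± 0.41, edgeR adjusted p = 7.09e-06), and the third was the chr17 region above. In both regions the MT libraries were well clear of the M libraries.

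**Figure D3:**
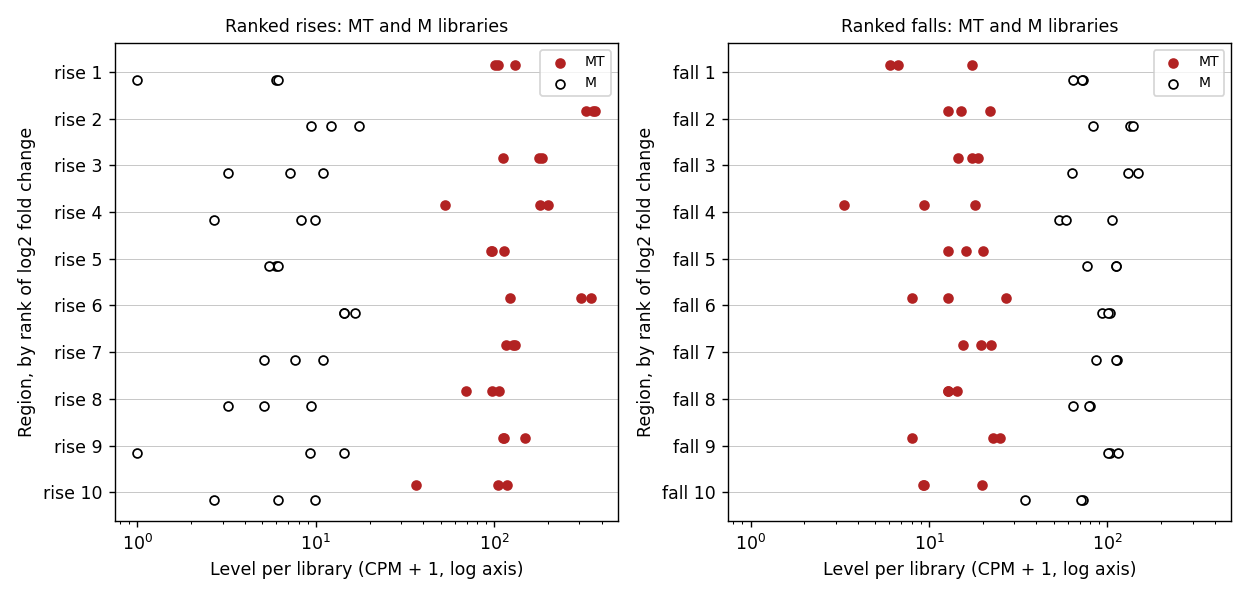
Levels of the 10 ranked rises (left) and 10 ranked falls (right) in each MT library (filled) and M library (open), on a log axis of CPM + 1, so that the libraries at 0 CPM, M replicate 3 at rise 1 and M replicate 1 at rise 9, appear at the left edge. The MT points lie right of the M points at every rise and left of them at every fall, as the choice of these regions required.

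The 10 falls with the largest change came from 250 regions that met the same conditions. At chr16:46376370-46376572 MT had 5.72, 5.05 and 16.5 CPM and M had 71.9, 63.1 and 71.0 CPM, a log2 fold change of -3.06 ± 0.61 (edgeR adjusted p = 0.00081). At chr2:125429511-125429724 MT had 21.0, 11.8 and 14.1 CPM and M had 132, 139 and 82.1 CPM (log2 fold change -2.84 ± 0.42, edgeR adjusted p = 4.31e-05). As the choice required, the groups did not overlap at either region. Control, which had no inhibitor, had 8.91, 2.61 and 4.73 CPM at the first and 6.68, 9.12 and 4.73 CPM at the second. Both regions were thus far above the control level in M. MT overlapped control at the first, while at the second every MT library was above every control library.

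The third fall behaved otherwise with respect to the control. At chr11:109551464-109551880 MT had 17.8, 13.5 and 16.5 CPM, M had 147, 130.0 and 62.1 CPM, and control had 46.8, 57.3 and 45.4 CPM. MT was thus below both M and control, and T had 5.86, 8.97 and 17.1 CPM. The log2 fold change of MT over M was -2.81 ± 0.45 (edgeR adjusted p = 0.000101) and that of T over control -2.16 (edgeR adjusted p = 0.0019). The ninth fall, chr7:151926031-151926595, had 24.1, 21.9 and 7.06 CPM in MT, against 102, 100.0 and 113 CPM in M (log2 fold change -2.45 ± 0.41, edgeR adjusted p = 0.000154). It also fell in T, at 11.7, 1.79 and 7.60 CPM, against 35.6, 40.4 and 23.6 CPM in control (edgeR adjusted p = 0.00172). T and control differ in the inhibitors too. GT over G adds Tbx5 without Mef2c and with the inhibitors in both groups, and neither region passed the test there. Missing the threshold does not show that Tbx5 left them unchanged. At the chr11 region GT had 25.3, 4.66 and 16.1 CPM and G had 17.2, 23.4 and 10.6 CPM (log2 fold change -0.11 ± 0.50, edgeR adjusted p = 0.97). Every G library was already below every control library there and near the MT level, and whether this hid a fall was not tested. At the chr7 region GT had 21.5, 13.1 and 20.7 CPM and G had 36.3, 41.6 and 30.4 CPM (log2 fold change -0.97 ± 0.43, edgeR adjusted p = 0.281, unadjusted p = 0.0297). Every GT library was below every G library at that region. Without GT replicate 1 the log2 fold changes were -0.85 and -1.14 (edgeR adjusted p = 0.422 and 0.137).

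At the fifth fall, chr16:86310043-86310507, MT had 19.1, 15.2 and 11.8 CPM, against 110.0, 110.0 and 75.4 CPM in M (log2 fold change -2.62 ± 0.47, edgeR adjusted p = 0.000312). The other 5 ranked falls were at chr8:130199119-130199321, chr8:68113521-68113723, chr3:131300945-131301320, chr2:96459138-96459355 and chr14:73414219-73414421, with log2 fold changes of -2.70, -2.54, -2.54, -2.53 and -2.43. Of the 10 ranked falls, only chr2:125429511-125429724, chr11:109551464-109551880 and chr7:151926031-151926595 also passed the test in GMT over GM (edgeR adjusted p = 0.00362, 0.0236 and 0.0344). All 22 named regions, 12 rises and 10 falls, kept their call in every alternative fitted for them, 19 or 20 each, with a highest adjusted p of 0.046. They were chosen for a large fold or a small p in the same counts, which favours keeping the call.

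As regions of like counts, 5 were taken among the 100 most accessible tested regions for the smallest change. At chr13:64533436-64534080 MT had 488, 606 and 607 CPM and M had 542, 605 and 548 CPM. At chr17:88465249-88465869 MT had 506, 539 and 607 CPM and M had 560.0, 574 and 512 CPM. The groups overlapped at both, and the SE of the log2 fold change was 0.22 and 0.19. The other 3, chr6:95067688-95067943, chr17:57386999-57387315 and chr18:49915207-49915440, had mean levels of 604, 484 and 591 CPM in MT and 603, 481 and 589 CPM in M.

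The next question was whether the same regions rose when Tbx5 was added to cells that held Gata4 as well. GMT and GM share no library with MT and M. GMT over GM called 2815 regions (13.7%), 2467 higher (12%) and 348 lower (1.7%), by edgeR. The count was 1720 and 1509 without GM replicate 1 or 3, and 1268 and 1606 without GMT replicate 2 or 3. Of these, 278, 63, 56 and 121 were lower. Without GMT replicate 1, 2942 were higher and 570 lower. Of the 2129 rises, 2106 (98.9%) had a log2 fold change above 0 in GMT over GM, with a median of 1.85 against -0.05 over all tested regions. The number called higher there was 1405, which is 66.0% of the MT rises and 57.0% of the GMT rises, and none was called lower. The overlap was 875 and 903 without M replicate 1 or 2, 880 without GM replicate 1 and 861 without GMT replicate 2. It was 1560 without GMT replicate 1, which is 69.2% of the MT rises of that fit. Without replicate 1, 2 or 3 of all groups it was 819, 305 and 171. These are 62.0%, 47.4% and 15.1% of the MT rises of each fit. Per-library medians of the MT rises were 28.1, 46.4 and 41.6 CPM in GMT, against 9.21, 12.4 and 9.48 CPM in GM.

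For the falls the direction was shared at most regions and the call at few. Of the 424 falls, 388 (91.5%) had a log2 fold change below 0 in GMT over GM, with a median of -0.73, and 35 were called lower, which is 8.25% of the MT falls and 10.1% of the GMT falls. The 35 became 18 and 10 without GM replicate 1 or 3, 8 and 14 without GMT replicate 2 or 3, 21 and 23 without M replicate 1 or 2, 19 and 17 without MT replicate 1 or 2, and 59 without GT replicate 1. Without GMT replicate 1, 44 were shared, and without replicate 1, 2 or 3 of all groups 14, 0 and 0. Medians of the 424 falls were 12.0, 10.3 and 12.9 CPM in GMT, against 21.7, 22.3 and 20.5 CPM in GM. The medians of MT and GMT overlapped, and every GM library was below every M library, an order that the choice of regions high in M favours. Across the 20494 tested regions the log2 fold changes of MT over M and of GMT over GM had a Pearson correlation of 0.71 and a Spearman correlation of 0.63. These are correlations over regions, which are not independent, and all regions share the libraries of each group.

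**Figure D4:**
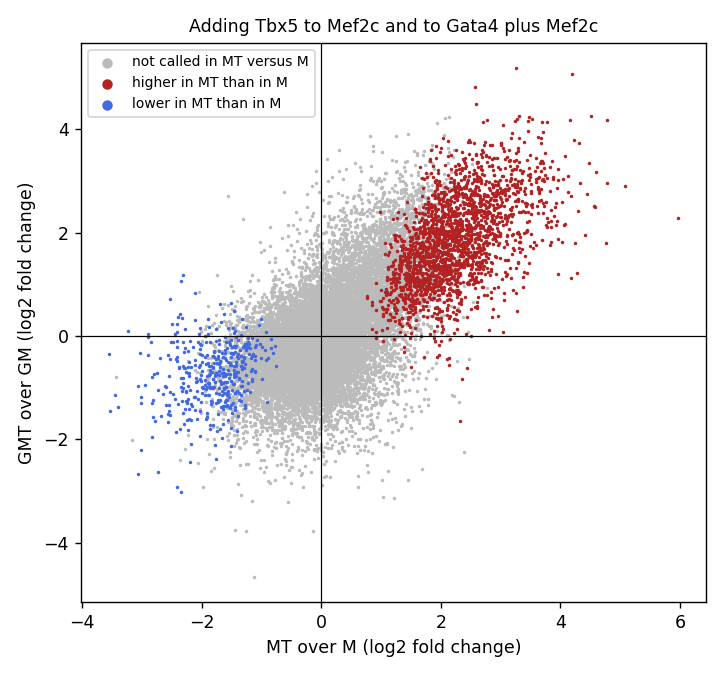
Log2 fold change of MT over M (x axis) and of GMT over GM (y axis) for each of the 20494 tested regions, with regions higher in MT in red, lower in MT in blue and others in grey. Red points lie above 0 on the y axis at 98.9% of the rises, and blue points lie below 0 at 91.5% of the falls.

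The difference between both changes was tested directly, as the change of MT over M minus that of GMT over GM. By edgeR no region was called, with 889 regions at an unadjusted p under 0.05, and DESeq2 called 0 as well. Without replicate 1 of all groups edgeR called 34. A difference that misses the threshold does not show that both changes were of the same size.

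In Gata4 cells most MT rises had higher counts with Tbx5 too. GT over G called 612 regions (2.99%), 604 higher (2.95%) and 8 lower (0.039%). The 2129 MT rises had a median log2 fold change of 1.21 in GT over G, against 0.00 over all tested regions, and 448 were called higher, 21.0% of the MT rises and 74.2% of the GT rises. Median levels of these rises were 10.1, 37.3 and 29.9 CPM in GT, against 9.97, 13.0 and 7.06 CPM in G, so that only GT replicate 1 overlapped G. Without that library GT over G called 1842 regions higher (8.99%) and 573 lower (2.8%). That fit called 2414 regions higher in MT, of which 1235 were also higher in GT, 51.2% of the MT rises and 67.0% of the GT rises, with a median log2 fold change of 1.55. GT over G called 0 regions without GT replicate 2, 227 without GT replicate 3, 113 without G replicate 1 and 1 without G replicate 3, and the overlaps were 0, 175, 94 and 1. Of the 424 falls none was called in GT over G, a fit with 8 lower calls in all, and their median log2 fold change there was -0.12. These falls had median levels of 7.7 CPM in G and 7.6 CPM in GT, against 45.9 CPM in M. Whether the low level in G hid a fall in GT was not tested. Without GT replicate 1 the same 424 regions had a median of -0.39 in GT over G, against -0.05 over all tested regions. In that fit 17 of them were called lower, 4.01% of the 424 and 2.97% of the regions lower in GT.

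The test of the difference between MT over M and GT over G called 1 region (0.00488%) by edgeR, above 0, with 1192 at an unadjusted p under 0.05. Without GT replicate 2 it called 7. It was chr8:4230734-4231155, the region of smallest p named above, where the log2 difference was 2.82 ± 0.41 (edgeR adjusted p = 0.0015), and 2.74 without GT replicate 1 (edgeR adjusted p = 0.00862). GT had 235, 343 and 202 CPM there, against 325, 161 and 219 CPM in G, so the groups overlapped and the region was already open with Gata4 alone. In GMT it had 197, 286 and 244 CPM, against 137, 96.8 and 141 CPM in GM, a log2 fold change of 0.95 (edgeR adjusted p = 0.0141). T had 170.0, 120.0 and 182 CPM, against 24.5, 28.7 and 19.9 CPM in control. M, at 16.7 to 24.4 CPM, and control were the groups in which this region was low.

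T over control, in which Tbx5 and the inhibitors change together, called 2977 regions higher (14.5%) and 2176 lower (10.6%). In all these were 5153 calls (25.1%). Without T replicate 2 the calls numbered 3428, with 2261 higher and 1167 lower. The lower calls numbered 1436 without T replicate 1. Of the MT rises 1513 were also higher in T, which is 71.1% of the MT rises and 50.8% of the T rises, and 7 were lower in T. The overlap was 912 and 952 without M replicate 1 or 2. Without replicate 1, 2 or 3 of all groups it was 916, 462 and 737. The median log2 fold change of the MT rises was 2.16 in T over control. The level in MT was above that in T at 749 of the 2129 (35.2%), and median levels were 64.5, 50.2 and 41.8 CPM in T, against 11.1, 10.4 and 7.57 CPM in control.

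The 1513 shared rises had median levels of 44.1 CPM in MT, 8.37 in M, 61.8 in T and 8.83 in control. Another 609 rises were not called in T over control, with median levels of 40.3 CPM in MT, 10.1 in M, 27.3 in T and 15.3 in control. Missing the threshold does not make these particular to the presence of Mef2c: their median log2 fold change in T over control was 0.75, and 534 of them (87.7%) lay above 0. Of the 609, 258 (42.4%) were called higher in GMT over GM as well.

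Among the falls, 103 were also lower in T, 24.3% of the MT falls and 4.73% of the T falls. Their median levels were 20.5 CPM in MT, 64.9 in M, 8.74 in T and 42.9 in control. The other 321 had median levels of 11.5 CPM in MT, 43.8 in M, 5.30 in T and 8.28 in control. A call of lower in T needs a high control level, so the split itself favours this difference in control levels. The change of MT over M minus that of T over control was called at 22 regions (0.107%) by edgeR, 18 above 0 (0.0878%) and 4 below 0 (0.0195%), with 2775 at an unadjusted p under 0.05. The inhibitors differ within T and control and not within MT and M, so an effect of the inhibitors cannot be told apart from the presence of Mef2c. No region was called in that difference with RLE size factors, with total counts alone, with loess offsets, or without any 1 of the control libraries, the M libraries, T replicates 1 and 2 or MT replicates 2 and 3. The count was 184 without MT replicate 1, 331 without T replicate 3 and 49 without GT replicate 1.

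The falls being open with Mef2c led to a check in libraries outside MT and M, chosen after the data were seen. GM over G adds Mef2c to Gata4 and called 1490 regions (7.27%), 1183 higher (5.77%) and 307 lower (1.5%), by edgeR. In MT over M these 1183 regions had a median log2 fold change of -0.52, and 891 of them (75.3%) lay below 0, against 50.2% of all tested regions. They held 128 of the MT falls, which is 10.8% of the 1183 and 30.2% of the 424 falls, and 31 of the MT rises, which is 2.62% of the 1183 and 1.46% of the rises. Per-library medians were 29.9, 28.6 and 23.5 CPM in MT, against 41.8, 40.3 and 42.1 CPM in M, and the libraries did not overlap. The choice of regions fixed that G was low. In GT, T and control, which the choice did not use, the medians ran between 5.38 and 13.4 CPM.

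That overlap of 128 moved with single libraries. It was 62 and 47 without G replicates 1 and 3, 54 and 60 without M replicates 1 and 2, 71 without GM replicate 1, 85 and 51 without MT replicates 1 and 2, and 217 with loess offsets. Without replicate 1, 2 or 3 of all groups it was 21, 33 and 4. The number of regions higher in GM than in G was 544 and 360 without G replicates 1 and 3, and 628 without GM replicate 1. All calls of GM over G numbered 984 without GM replicate 3. The 307 lower calls became 61, 643 and 19 without G replicate 1, 2 or 3, 50, 93 and 169 without GM replicate 1, 2 or 3, and 481 without GT replicate 1. Most of the regions higher in GM, 1024 of the 1183, were not called in MT over M, and their median levels were 29.8 CPM in MT and 39.6 CPM in M. The 31 that rose had median levels of 119 CPM in MT and 36.8 CPM in M, and 9.22 CPM in G and 10.3 CPM in control.

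The regions that rose were wider than the rest. Their median width was 322 bp (quartiles 242 and 431), against 270.0 bp for the falls and 261 bp for all tested regions. The share called higher was 6.06% of the 9488 regions of up to 250 bp, 11.4% of the 5865 up to 350 bp, 14.9% of the 3789 up to 500 bp and 24% of the 1352 wider ones. The share called lower ran only between 1.87% and 2.51%. Wider regions collect more counts, and the median level in the widest class was 60.4 CPM in MT and 35.6 CPM in M, against 18.4 and 17.8 CPM in the narrowest.

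Level moves with width, so they were also taken within 4 equal classes of the mean level. In class 3 the share called higher was 5.93%, 14.5%, 22.3% and 38.3% in order of width, and in class 4, the highest, it was 1.5%, 3.74%, 7.06% and 18.3%. In class 1, the lowest, it showed no such order, at 6.79%, 9.99%, 8.79% and 5.88%. The share called higher was 7.90%, 13.9%, 14.2% and 5.57% in classes 1 to 4. The share called lower was 0.527%, 2.73%, 3.55% and 1.47%, so few falls were called at the lowest level.

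**Figure D5:**
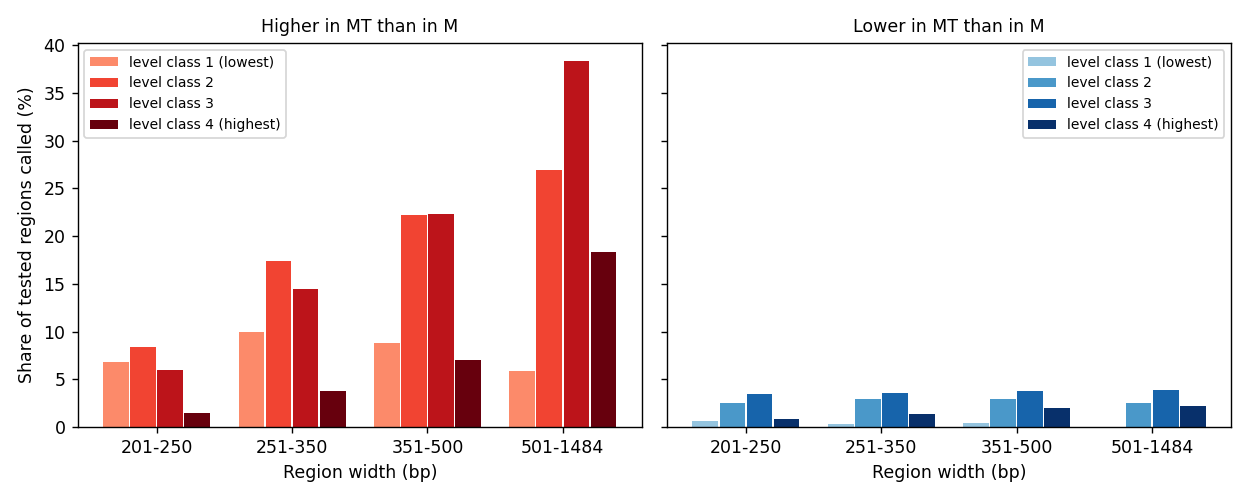
Share of tested regions called higher (left) or lower (right) in MT than in M (percent, y axis), by region width in bp (x axis) and by class of the mean level (shade). Within classes 2, 3 and 4 the share called higher grows with width, up to 38.3% in class 3, while shares called lower stay under 4%.

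Rises also lay near each other. A tested neighbour within 10 kb was present for 973 of the rises, and the nearest one had risen too at 359 (36.9%). For regions that were not called it was 615 of 7046 (8.73%), and for all tested regions 983 of 8135 (12.1%). The nearest neighbour of a rise had a median log2 fold change of 1.08, also counting those that were not called. Of the 116 falls with such a neighbour, the nearest had fallen at 6 (5.17%), against 111 of 8135 (1.36%) for all tested regions, and risen at 9 (7.76%). Neighbouring regions are not independent, and whether some were split from 1 wider stretch was not tested.

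Every chromosome carried calls in both directions. The share of tested regions called higher ran between 8.13% on chromosome 11 and 12.9% on chromosome 1, and the share called lower between 1.32% on chromosome 7 and 3.16% on chromosome 18.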

How the data were processed

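Per the labels' protocols, each ATAC-seq library used 50000 cells, not sorted, taken on day 2, and 12 cycles of PCR. The deposited values are raw counts for each region, which the authors made with featureCounts on mm9, and Bowtie2 and Picard are also named, per the submitters' processing notes. How regions were defined is not given in the sources used here. Regions have widths of 201 to 1484 bp (median 234). Columns for 24 of 27 samples were used, and samples were grouped by their labels.

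In R 4.3.3, regions were kept by filterByExpr (minimum count 10, minimum total 15), scaled by TMM, and fitted with 8 group means in edgeR 4.0.16 (quasi-likelihood test; square root of the common dispersion 0.294). Calls have a Benjamini-Hochberg adjusted p under 0.05 within each comparison. The SE is the size of the log2 fold change divided by the square root of F. Log2 CPM used a prior count of 2. The script was tested on simulated data.

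Named regions are the 10 highest and 10 lowest log2 fold changes among calls whose mean log2 CPM reached the tested median and with groups that do not overlap, the 3 smallest p in each direction, and 5 regions with the smallest change among the 100 of highest level. For each difference they are the 2 highest and 2 lowest called, with the same level rule. The comparison, the lists and the rules were chosen with earlier results of these data known.

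Alternatives were DESeq2 1.42.0, RLE size factors, scaling by total counts, loess offsets (span 0.3), no filter, a minimum count of 30, glmTreat with a fold of 1.5, the replicate number as a block, only the 6 MT and M libraries, and leaving out libraries. The annotation at hand is of GRCm38, so genes, motifs and sequences were not used here.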

Additional observations from a re-analysis of the deposited data

Results flagged for a closer look

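The change of MT over M differed from that of another pair of groups at a few regions, by direct tests of the difference with edgeR. Against GT over G it was 1 region, chr8:4230734-4231155, with a log2 difference of 2.82. The call was lost in 2 of 23 alternatives, without replicate 1 of all groups (edgeR adjusted p = 0.206) and without replicate 3 of all groups (0.247). The lowest adjusted p among the alternatives was 1.55e-05.

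Against T over control it was 22 regions, and 4 are named by the rule for differences. T and control differ in the inhibitors as well, so these are not differences in the addition of Tbx5 alone. At chr13:115050742-115050965 the log2 difference was 3.64 (edgeR adjusted p = 0.0467). MT had 15.2, 23.6 and 65.9 CPM there, against 15, 15.5 and 17.7 CPM in M, and T had 14.7, 10.8 and 26.6 CPM, against 118, 117 and 96.5 CPM in control. At chr1:129518975-129519343 it was 3.60 (edgeR adjusted p = 0.0491). MT had 15.2, 16.8 and 44.7 CPM there, against 26.7, 30.0 and 42.1 CPM in M, and T had 2.93, 3.59 and 22.8 CPM, against 151, 176 and 202 CPM in control. In both regions T over control fell (edgeR adjusted p = 0.000224 and 5.39e-06), and MT over M did not pass the test (edgeR adjusted p = 0.243 and 0.637).

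On the other side, chr16:86310043-86310507 had a log2 difference of -4.04 (edgeR adjusted p = 0.0467). T had 17.6, 5.38 and 15.2 CPM there, against 6.68, 2.61 and 4.73 CPM in control, beside the fall in MT over M given above. T over control did not pass the test at this region (log2 fold change 1.43, edgeR adjusted p = 0.118). At chr8:89283057-89283278 the log2 difference was -3.36 (edgeR adjusted p = 0.0467). MT had 17.8, 8.42 and 11.8 CPM, against 98.6, 71.4 and 44.4 CPM in M, and T had 44.0, 19.7 and 22.8 CPM, against 13.4, 16.9 and 12.3 CPM in control. MT over M fell there (edgeR adjusted p = 0.000808), and T over control did not pass the test (edgeR adjusted p = 0.183). The call in the difference was lost in 18 of 23 alternatives at chr16:86310043-86310507 and in 17 of 24 at each of the other 3, with a highest adjusted p of 0.917 without replicate 2 of all groups.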

How the results depend on the processing

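The counts of calls moved with the processing. The named rises and falls of MT over M kept their direction and call, which their choice by fold or p from the same counts favours. Against 2129 regions higher and 424 lower in MT, the stricter filter gave 1278 and 164, a minimum fold of 1.5 gave 1419 and 183, and leaving out libraries gave 644 to 2414 higher and 95 to 568 lower. Loess offsets gave 823 lower, and the 6 MT and M libraries alone 2838 higher and 1099 lower. DESeq2 gave 1762 and 472. Whether the replicate numbers pair the samples is not known. Deviations of same-numbered MT and M libraries correlated at 0.098, -0.033 and 0.156, and MT replicate 1 correlated best with M replicate 2 (0.26). With 3 libraries of unequal depth in each group, these values cannot exclude a shared batch. With the replicate block the counts were 2192 and 453, and with the block in the 6 libraries alone 3291 and 1634.

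For GMT over GM (2815 calls), the stricter filter gave 1530, a minimum fold of 1.5 gave 1702, and leaving out libraries gave 219 to 3512. For GT over G (612 calls), the values were 396 with loess offsets, 392 with the stricter filter, 203 with the minimum fold, 377 with the replicate block and 0 to 2415 when leaving out libraries. For MT over M minus T over control (22 calls), RLE size factors, total counts, loess offsets, the stricter filter and the minimum fold each gave 0, the replicate block 44, DESeq2 150, and leaving out libraries 0 to 331. Leaving out libraries gave 0 to 34 calls for the difference from GMT over GM and 0 to 7 for that from GT over G. The cause of these moves was not tested, except that the stricter filter tests fewer regions and leaving out libraries removes samples.

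In the lowest of 4 level classes 7.90% of regions were called higher and 0.527% lower, against 5.57% and 1.47% in the highest. The part of depth in these shares was not tested.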
